A study of Xenopus laevis with 8 samples.

Results

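Splicing factor and hnRNP genes were compared between the heads and tails of stage 18 embryos of the clawed frog Xenopus laevis, which are late neurulae with a closing neural tube. They were taken by name from the array annotation: the proteins of the spliceosomal small nuclear ribonucleoproteins (snRNPs), the SF3A and SF3B subunits, SF1 and U2AF, the PRPF, LSM, SRSF, SRRM and TRA2 proteins, the hnRNPs, the PTBP, CELF, RBFOX and MBNL regulators, the helicases ddx46 and dhx15, and the numbered RBM (RNA-binding motif) proteins. The rule found 185 of the 15491 probe sets that are not controls. They stand for 131 gene copies of 106 genes, out of 6504 genes named on the array, because the frog is an ancient tetraploid and many of its genes have an L and an S copy. No mbnl or puf60 probe set with a single symbol was found, and 3 further probe sets whose annotation joins several symbols were not used.

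Untreated embryos were cut across, and RNA of the head fragment or the tail fragment was hybridised to Affymetrix arrays. Each tissue had 4 arrays, of which replicates 1 to 3 were single embryos and replicate 4 was pooled from several. How many embryos were pooled, which clutches were used and whether head and tail arrays with equal numbers share an embryo are not in the labels, so the p-values cover only the spread between these samples. A fragment holds every tissue of its end of the embryo, and in such bulk samples fewer cells of a type and less RNA per cell cannot be told apart.

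As background, the spliceosome removes introns in steps. The U1 snRNP binds the start of the intron, SF1, U2AF and the U2 snRNP recognise its branch point and end, and the U4/U6.U5 tri-snRNP with the PRPF proteins then joins and is rearranged into the catalytic machine. SR proteins and hnRNPs bind the pre-mRNA and favour or repress individual exons, and regulators such as the CELF, RBFOX and RBM24 proteins do so in particular tissues, among them brain and muscle. Core subunits are needed in every cell that makes spliced mRNA.

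The arrays matched their labels. The summed signal of 7 head genes (ag1, agr2, otx2, six3, rax, pax6 and six6) ran from 42819 to 64251 in the heads and from 5023 to 8894 in the tails. Most of this sum came from the brightest of them, ag1 and agr2. Of the 7, ag1, agr2, six3 and pax6 were called higher in heads. The summed signal of 7 tail genes (tbxt, hoxa7, cdx4 and others) ran from 805 to 2252 in the heads and from 7866 to 11749 in the tails. The median signal of an array lay between 327 and 390. The 3' probe set of the beta-actin control exceeded its 5' probe set by 3.81 to 4.78 on the log2 scale on 7 arrays. On head replicate 1 it did so by 7.59. The Gapd control gave 6.13 there and 5.75 to 7.31 on the other arrays. Both controls thus favoured the 3' end on every array. Whether this 3' bias moved the differences between probe sets of 1 gene was not tested.

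A probe set was tested when its mean log2 signal over the 8 arrays was above 7.86, a signal of 233. This kept 159 of the 185 splicing and hnRNP probe sets (85.9%), against 9295 of all 15491, and the other 26 were too dim, 12 of them from RBM genes. In limma's test, with p-values adjusted over all 9295 probe sets tested and a threshold of 0.05, 2 of the 159 differed between heads and tails. This is 1.26%, against 4.62% of all probe sets tested. Both were higher in heads, where 2.00% of all probe sets were higher, and none was higher in tails, where 2.61% were. The 2 were celf3.S and 1 of the 2 probe sets of prpf19.L. With tail replicate 1 left out 2 passed, with head replicate 1, 3 or 4 or tail replicate 3 or 4 left out 1 passed, and with head replicate 2 or tail replicate 2 left out 0 passed (10 and 16 at an unadjusted p under 0.05).

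At an unadjusted p under 0.05 there were 18 (11.3%), 14 of them with the higher mean in heads and 4 in tails, against 17.5% of all. Over all 9295 probe sets tested, 822 had the higher mean in heads and 800 in tails at that p. For 12 probe sets the lowest head lay above the highest tail, against 5.95% of all probe sets tested, and for 3 the lowest tail lay above the highest head, against 5.71% of all. Together these 15 made 9.43% of the 159. The differences of most members were small and bounded: the 95% confidence interval lay within a 2-fold change in either direction for 116 of the 159 (73.0%), against 61.5% of all probe sets tested. A difference of more than 2-fold was measured for 2 of the 159 (1.26%), celf3.S and rbm24.S, against 6.26% of all. The 159 were also brighter, with a median of the mean log2 signals of 10.90 against 9.77 over all probe sets tested. The part of signal level in these shares was not tested.

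**Figure D1:**
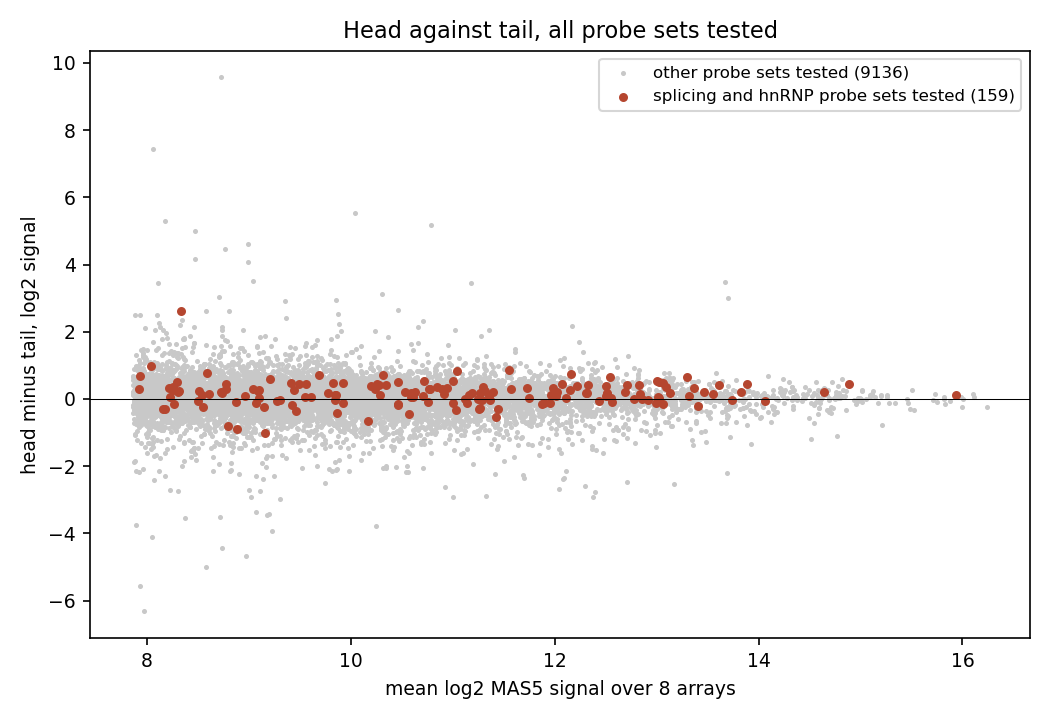
Difference between the mean log2 signals of heads and tails (vertical axis) against the mean log2 signal over the 8 arrays (horizontal axis) for all 9295 probe sets tested. Red points are the 159 splicing and hnRNP probe sets, which lie between -1.02 and 2.63, and grey points are the others.

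The tissue-specific regulators held the largest difference. Celf3 is a CELF-family RNA-binding protein that is enriched in the nervous system in mammals. The log2 signal of celf3.S was 8.84, 9.91 and 9.22 in the single heads and 10.61 in the head pool, and 5.91, 6.62 and 7.07 in the single tails and 8.47 in the tail pool. Every head lay above every tail, and the pool was the highest array of each tissue.

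The mean of celf3.S was 9.64 ± 0.78 in heads and 7.02 ± 1.08 in tails (SD over 4 arrays), a difference of 2.63 on the log2 scale (SE 0.52, 95% interval 1.49 to 3.76) or 6.17-fold (limma, adjusted p = 0.0132, higher in 4 of 4 heads). Without head replicate 2 the difference was 2.54 with an adjusted p of 0.0502, and without tail replicate 2 it was 2.49 with an adjusted p of 0.0504, just past the threshold at nearly the same size. With values under the 20th percentile of all signals (93.3) raised to that level, the difference was 2.47. With that signal added to every value instead, the difference was 1.95 (limma, adjusted p = 0.00989). The single tails (5.91, 6.62 and 7.07) and the tail mean of 7.02 lay under the filter at 7.86. Celf3.S was tested because its mean over all arrays, 8.33, lay above the filter. The size of its difference thus depended on how dim signals were treated.

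The L copy, celf3.L, was too dim to be tested. Its log2 signal was 6.12, 7.26 and 7.28 in the single heads and 7.82 in the head pool, and 4.70, 6.95 and 6.14 in the single tails and 5.58 in the tail pool. Head replicate 1 lay within the tails, so the tissues overlapped, and the difference of 1.28 did not pass without the filter (adjusted p = 0.305).

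Of 8 neural markers on the array, sox2, sox11, neurod1 and prph were higher in heads, none was higher in tails, and sox3, ncam1, tubb2b and elavl3 did not pass or were not tested. The summed signal of the 8 ran from 17297 to 29840 in heads and from 6483 to 10155 in tails. Within each tissue this sum ranked the arrays in the same order as celf3.S, with the pool highest. In both pools the brightest of the 8 was sox11.S, with a log2 signal of 14.01 in the head pool and 12.48 in the tail pool. Alone it gave the same order of arrays. Single markers differed in where the pools lay: sox3.S, sox11.S and ncam1.S were highest in both pools, as celf3.S was. Neurod1.L was lowest in both pools, and sox2.L, tubb2b.S, elavl3.L and prph.L were highest in neither. The part of the neural tissue in the celf3.S difference was not tested.

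The other members of this class gave smaller differences, none of which passed the test. Celf2.L was 10.11, 10.47 and 10.54 in the single heads and 10.25 in the head pool, and 11.07, 10.73 and 10.67 in the single tails and 10.73 in the tail pool. Its tails all lay above its heads, with a difference of -0.46 (SE 0.20, unadjusted p = 0.0455, adjusted p = 0.272). Celf1, known in Xenopus as EDEN-BP, a protein that promotes the shortening of poly(A) tails, gave differences of -0.04 for celf1.L (adjusted p = 0.976) and -0.29 for celf1.S (adjusted p = 0.798), with overlapping tissues. Rbfox2.S, a regulator of alternative exons, gave 0.18 (SE 0.31, adjusted p = 0.826).

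The second celf1.S probe set was under the filter, with a difference of 0.06. The polypyrimidine tract binding proteins, which repress exons, gave differences near 0: 0.05 for ptbp1.L (95% interval -0.45 to 0.56), -0.00 for ptbp1.S (-0.50 to 0.49) and 0.07 for ptbp3.S (-0.51 to 0.65). A dim second probe set of ptbp1.L gave -0.40 and was not tested.

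Rbm24, an RNA-binding protein of developing muscle in frog and mouse, had its higher mean in tails. The log2 signal of rbm24.S was 8.84, 8.16 and 8.67 in the single heads and 8.92 in the head pool, and 9.43, 9.26 and 9.69 in the single tails and 10.29 in the tail pool. No head reached the lowest tail, and the difference was -1.02 (SE 0.28, 95% interval -1.63 to -0.41), or 2.03 times as much signal in tails. This missed the threshold in limma's test, with an adjusted p of 0.0623. It passed with quantile normalization (0.0418) and with each array centred on its median (0.0398). It also passed with array weights (0.0113) and with the replicate number as a block (0.0222). The array weights leaned on tail replicate 3 (weight 3.18, against 0.39 to 0.84 for the other tails). The block assumes a pairing that the labels do not state. Rbm24.S did not pass without the filter (0.0899), with the single embryos only or on leaving out any single array.

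Rbm24.L has a pair of probe sets, both under the filter. In the brighter, the log2 signal was 6.78, 6.24 and 6.35 in the single heads and 7.39 in the head pool, and 8.10, 8.17 and 7.89 in the single tails and 9.24 in the tail pool. The tissues did not overlap and the difference was -1.66, which passed when all 15491 probe sets were tested without the filter (adjusted p = 0.0459; 2.93% of all passed in that fit). The dimmer gave -0.16 with overlapping tissues and an adjusted p of 0.913 in the same fit.

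Muscle genes varied among the tails. Of 11 muscle markers 9 were on the array and 3 were called higher in tails, none in heads, and the summed muscle signal ran from 22319 to 30446 in heads and from 24588 to 51584 in tails, so it overlapped. The genes called were myf5, klhl41 and nexn. The tail pool was the highest tail in rbm24.S and in the brighter rbm24.L probe set, and it had the lowest muscle sum of the tails but the highest myod1.S signal (10.92, against 8.93, 10.23 and 9.93 in the single tails). The part of muscle tissue in the rbm24 difference was not tested.

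**Figure D2:**
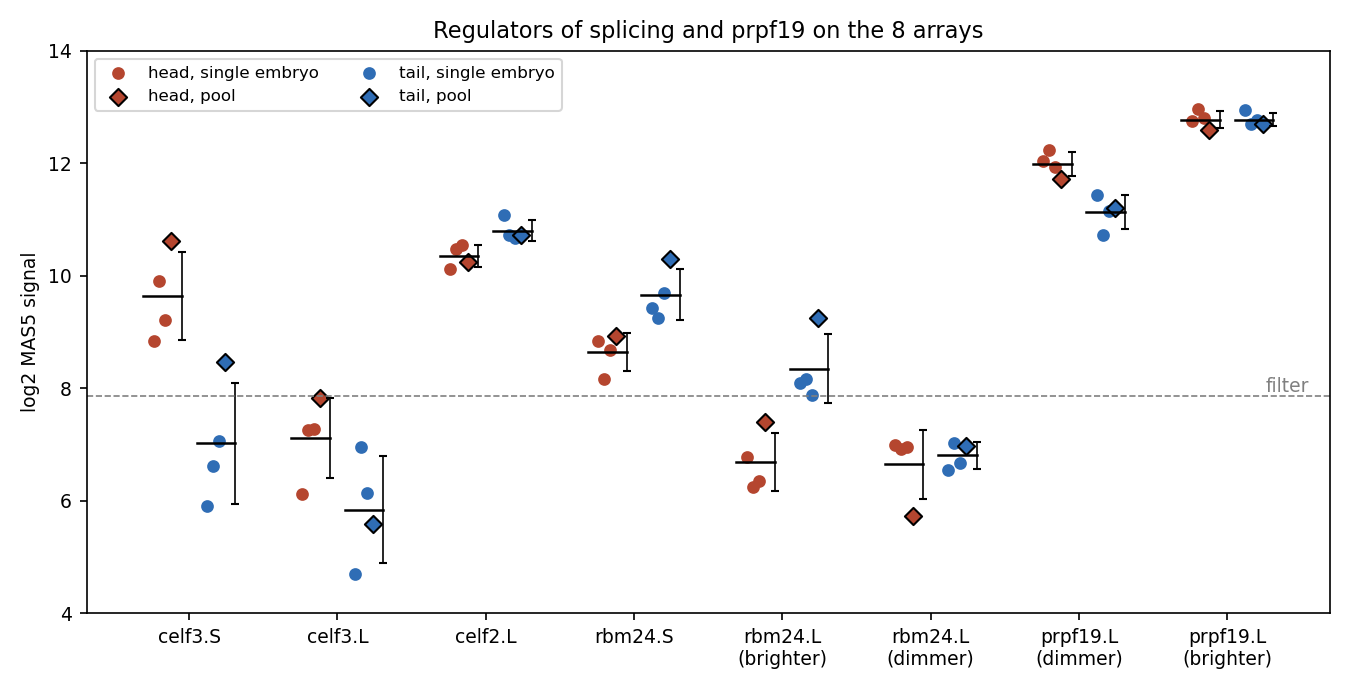
Log2 MAS5 signal of celf3, celf2, rbm24 and prpf19 probe sets on each of the 8 arrays, with heads in red, tails in blue and pools as diamonds; black lines are means and bars are ± 1 SD over 4 arrays, and the dashed line is the filter at 7.86. Heads and tails of celf3.S, celf2.L, rbm24.S, the brighter rbm24.L and the dimmer prpf19.L probe set do not overlap.

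In the U4/U6.U5 and PRPF class, prpf19 encodes the ubiquitin ligase of the complex that stabilises the activated spliceosome. The dimmer of its prpf19.L probe sets was 12.04, 12.23 and 11.93 in the single heads and 11.72 in the head pool, and 11.44, 10.73 and 11.16 in the single tails and 11.20 in the tail pool. Every head lay above every tail, and the difference was 0.85 (SE 0.22, 95% interval 0.38 to 1.32), or 1.80-fold, with an adjusted p of 0.0459. The brighter probe set of the same gene copy had means of 12.78 ± 0.16 in heads and 12.77 ± 0.12 in tails, a difference of 0.00 (95% interval -0.38 to 0.39, adjusted p = 0.996). The intervals of the 2 probe sets overlap only from 0.38 to 0.39, and which of them follows the prpf19 mRNA was not tested.

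The prpf19.L call was also lost with median centring (difference 0.78, adjusted p = 0.105), with the 6 single embryos alone (0.96, adjusted p = 0.0994), and on leaving out any array other than tail replicate 1 (0.72 to 0.94, adjusted p = 0.0660 to 0.154), while the size of the difference stayed near 0.85. The rest of the class was spread on both sides of 0. Its median was 0.04 over 14 probe sets, 8 of them positive, against a median of 0.06 over all probe sets tested. Snrnp40.L, a U5 protein, was 11.58, 11.29, 11.05 and 11.20 in head replicates 1 to 4 and 10.47, 10.78, 10.93 and 10.75 in tail replicates 1 to 4. The tissues of snrnp40.L did not overlap and differed by 0.55 (SE 0.21, adjusted p = 0.182), while its S copy differed by 0.09 (SE 0.21) with overlap.

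Prpf4b.L, a kinase of the tri-snRNP, was the member of this class with non-overlapping tails on top. It was 9.46, 9.35, 8.94 and 9.39 in head replicates 1 to 4 and 9.76, 9.56, 9.54 and 9.68 in tail replicates 1 to 4, a difference of -0.35 (SE 0.21, adjusted p = 0.435). Another prpf4b.L probe set, under the filter, differed in the other direction by 0.29, and prpf4b.S differed by -0.03, both with overlap. Prpf8.S and snrnp200.L, the central scaffold and the U4/U6-unwinding helicase of the spliceosome, differed by 0.19 and 0.27, with adjusted p-values of 0.808 and 0.601. Prpf4.L, prpf3.S and prpf31.S, which hold U4 and U6 together, differed by 0.35, -0.30 and -0.10. None of these passed.

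**Figure D3:**
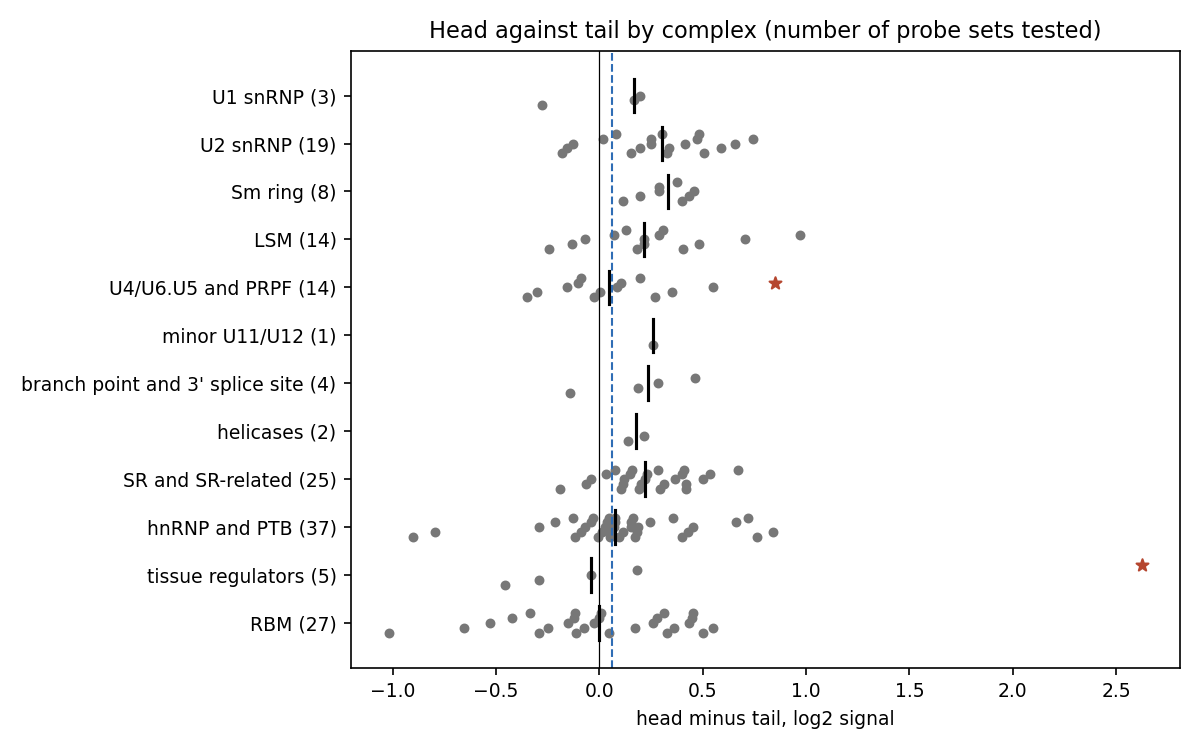
Difference between the mean log2 signals of heads and tails for each of the 159 splicing and hnRNP probe sets tested, by complex, with the number tested in brackets. Black bars are class medians, the blue dashed line is the median of all 9295 probe sets tested (0.06), and red stars are the 2 probe sets called, celf3.S and prpf19.L.

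Over all 159 probe sets the median difference was 0.17, against 0.06 over all 9295, and 114 (71.7%) were positive against 56.0%. Median centring of the arrays moved these medians to 0.10 and -0.01. Of 9 replication genes on the array, cdk2, cdc45, mcm2, mcm4 and mcm5 were higher in heads and the other 4 did not pass or were not tested, and the summed signal of the 9 ran from 31315 to 41578 in heads and from 17848 to 18609 in tails. Their part in the shift of the splicing genes was not tested. The class medians ran from 0.33 for the Sm ring and 0.30 for the U2 snRNP to -0.00 for the RBM proteins and -0.04 for the tissue regulators. Single arrays moved several of them: leaving out each array in turn gave 0.30 to 0.42 for the Sm ring and 0.21 to 0.37 for U2, but 0.11 to 0.36 for LSM, -0.03 to 0.28 for U1, -0.06 to 0.12 for RBM and -0.37 to 0.27 for the tissue regulators. Of the 18 probe sets with an unadjusted p under 0.05, the U2, Sm, LSM and PRPF classes each held 2, all on the head side. These classes had 19, 8, 14 and 14 probe sets tested. Over all 9295 probe sets tested, 17.5% had such a p, with 822 on the head side and 800 on the tail side. Counting both directions, the share was below 17.5% in the U2, LSM and PRPF classes and above it in the small Sm class. On the head side alone, the share in each of these classes was above that of 822 in 9295, but it rested on 2 probe sets per class. Whether any class held an excess on the head side was not tested. The SR class held 1 on the head side, the hnRNPs 2 on the head and 1 on the tail side, the tissue regulators 1 on each side and the RBM proteins 2 on each side.

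The Sm proteins form the ring on which the U1, U2, U4 and U5 RNAs are packaged. All 8 Sm probe sets, of snrpb, snrpd1, snrpd3, snrpf and snrpg, had positive differences, from 0.11 to 0.46, and none passed the test. They stayed positive in 8 of 8 under quantile normalization and median centring, in 7 of 8 with array weights, and in 6 of the 7 tested without head replicate 4. Snrpb.S was 15.38, 15.23, 14.87 and 14.95 in head replicates 1 to 4 and 14.69, 14.81, 14.71 and 14.49 in tail replicates 1 to 4. These tissues did not overlap, and the difference was 0.43 (SE 0.17, unadjusted p = 0.0266, adjusted p = 0.208).

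Snrpb.L differed by 0.20, with overlap. The brighter probe set of snrpd1.L had 12.64, 12.30, 12.42 and 12.29 in head replicates 1 to 4 and 12.07, 12.17, 11.90 and 11.99 in tail replicates 1 to 4, a difference of 0.38 without overlap (adjusted p = 0.319). The other snrpd1.L probe set differed by 0.46 (adjusted p = 0.244), with head replicate 4 just under tail replicate 1. Snrpg.S differed by 0.40, both copies of snrpd3 by 0.29, and snrpf.S by 0.11, and none of these passed.

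The U2 snRNP recognises the branch point. Of its 19 probe sets tested, from 11 genes, 16 had a positive difference and none passed, with a range from -0.18 to 0.74. The dimmest tested probe set of snrpa1.S was 9.66, 9.45, 9.47 and 9.44 in head replicates 1 to 4 and 8.95, 8.75, 9.11 and 8.86 in tail replicates 1 to 4. All heads lay above all tails, with a difference of 0.59 (SE 0.20, adjusted p = 0.144), the lowest adjusted p in the class. The other tested snrpa1.S probe sets differed by 0.16 and 0.41 with overlap.

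SF3A and SF3B, the U2 subcomplexes that clamp the branch helix, gave 13 of the 19 probe sets, with a median of 0.33. Sf3b4.L was 11.94, 12.50, 12.82 and 12.89 in head replicates 1 to 4 and 10.84, 12.05, 11.97 and 12.31 in tail replicates 1 to 4. Head replicate 1 lay within the tails, and the difference of 0.74 had an adjusted p of 0.263. Sf3b4.S differed by 0.30, sf3a2.S by 0.66 (adjusted p = 0.287), sf3a1.L by 0.51 and sf3b5.S by 0.34. The 3 tested probe sets of sf3b1.S, the subunit that holds the branch point, spread from -0.16 to 0.48. The brightest (mean log2 signal 13.07, SD within tissues 0.24) gave -0.16. The dimmer ones (means 8.52 and 9.83, SD 0.79 and 0.91) gave 0.25 and 0.48.

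The U1 snRNP had 3 probe sets tested, snrpc.S at 0.20, snrpa.S at 0.17 and snrnp70.L at -0.28, with adjusted p-values of 0.609, 0.782 and 0.718. The factors of the branch point and the 3' splice site gave 0.46 for sf1.S (SE 0.45), 0.28 for u2af1.S, and 0.19 and -0.14 for the probe sets of u2af2.S. The helicases dhx15.L, which takes spliced complexes apart, and ddx46.L, which helps U2 to bind, differed by 0.21 and 0.14. Of the minor spliceosome, which removes a rare class of introns, snrnp48.L was tested and differed by 0.26, while snrnp35.L was too dim.

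LSM2 to LSM8 form the ring on the U6 RNA. Of their 11 probe sets tested, 10 had a positive difference, with a median of 0.22, and none passed. Lsm3.S was 10.07, 10.34, 9.98 and 10.27 in head replicates 1 to 4 and 9.68, 9.64, 9.68 and 9.72 in tail replicates 1 to 4. The heads lay above the tails without overlap, by 0.48 (SE 0.19, adjusted p = 0.214), and lsm3.S had the smallest spread within tissues of the 159 tested (SD 0.12).

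Lsm6.S was 10.46, 10.89, 10.43 and 10.91 in head replicates 1 to 4 and 10.09, 9.02, 10.32 and 10.43 in tail replicates 1 to 4. The tail pool came within the rounding of the lowest head, and the difference was 0.71 (SE 0.31, adjusted p = 0.258). The LSM proteins outside that ring act on mRNA in the cytoplasm in the case of LSM14: lsm14a.S differed by -0.13 and lsm14b.L by 0.97 (SE 0.64, adjusted p = 0.491), with wide overlap. Lsm12.L differed by -0.24.

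Among SR and SR-related proteins, which bind exon enhancers, 22 of 25 probe sets had a positive difference, with a median of 0.22 and a range from -0.19 to 0.67, and none passed. Of these 25, 3 did not overlap, all with the heads higher, and 5.95% of all probe sets tested did so in that direction. None had the tails higher without overlap, against 5.71% of all. The share of the 3 was thus above that of all on the head side. Counting both directions, it was close to the 11.7% of all. Whether the class held an excess on the head side was not tested. Srsf3.S was 13.18, 13.18, 13.36 and 13.40 in head replicates 1 to 4 and 12.63, 12.96, 12.99 and 13.08 in tail replicates 1 to 4, a difference of 0.37 (SE 0.18, adjusted p = 0.320). Srsf10.S, known for repressing splicing when dephosphorylated, differed by 0.28 (SE 0.19, adjusted p = 0.486).

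The third was the dimmest of 3 probe sets of srsf1.L, with heads of 7.95, 7.96, 8.50 and 8.64 and tails of 7.77, 7.58, 7.58 and 7.44, a difference of 0.67 (SE 0.26, adjusted p = 0.203). That probe set lies close to the filter. The brighter probe sets of srsf1.L differed by 0.16 and 0.42 and overlapped. The brighter srsf2.L probe set had means of 15.98 ± 0.09 in heads and 15.88 ± 0.40 in tails and differed by 0.10 (adjusted p = 0.842). Tra2b.S, an activator of exons, differed by 0.50 (adjusted p = 0.316).

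The hnRNPs coat nascent transcripts. Their class, with the PTB proteins, had 37 probe sets tested, a median of 0.07 against 0.06 for all, and none past the threshold. The class median was 0.24 without tail replicate 4 and 0.01 without tail replicate 1, where that of all was 0.06 and 0.04. Hnrnpa1, a repressor of exons, was measured by 7 probe sets whose differences lay between -0.03 and 0.19. Hnrnpk.S gave 0.09 and -0.29, hnrnpm.L -0.04 and hnrnpd.L 0.07.

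Hnrnpa0.S had the largest positive difference of the class, and its L copy lay on the same side. It was 10.90, 11.55, 11.49 and 11.91 in head replicates 1 to 4 and 9.39, 10.78, 10.61 and 11.69 in tail replicates 1 to 4, a difference of 0.84 (SE 0.41, adjusted p = 0.317). Hnrnpa0.L was 9.32, 10.54, 9.86 and 10.47 in head replicates 1 to 4 and 8.06, 9.29, 9.47 and 10.50 in tail replicates 1 to 4, a difference of 0.72 (SE 0.45, adjusted p = 0.465). In both copies tail replicate 1 was the lowest array and the tail pool reached into the heads.

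Probe sets of 1 hnRNP gene did not always give the same value. The 4 of hnrnpr.S differed by 0.25 to 0.76, with the lowest adjusted p at 0.247. The 4 of hnrnpu.S, a nuclear matrix RNA-binding protein, ran from -0.80 (the dimmest, unadjusted p = 0.0412, adjusted p = 0.260) to 0.17. Hnrnpa3.L gave -0.90 (SE 0.65) with head replicate 3 at 5.98 and the other heads between 8.82 and 9.74, and it had the largest spread within tissues of the 159 tested (SD 1.23), while hnrnpa3.S gave -0.07.

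The RBM proteins are a mixed group of RNA-binding proteins, and 13 of their 27 probe sets tested were positive, with a median of -0.00. Rbm8a (Y14), a core protein of the exon junction complex that splicing leaves on the mRNA, lay on the head side in both copies. Rbm8a.L was 14.34, 14.11, 13.88 and 14.09 in head replicates 1 to 4 and 13.48, 13.88, 13.64 and 13.69 in tail replicates 1 to 4. Its tissues met only at a rounded 13.88, and the difference was 0.43 (SE 0.18, adjusted p = 0.218).

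Rbm8a.S was 13.44, 13.10, 13.34 and 13.25 in head replicates 1 to 4 and 12.60, 13.26, 12.53 and 12.55 in tail replicates 1 to 4. Tail replicate 2 lay among the heads, and the difference was 0.55 (SE 0.21, adjusted p = 0.191). Rbm19 and rbm28, which work in the nucleolus on ribosome assembly, differed in the other direction, by -0.43 for rbm19.L and -0.34 for rbm28.L, with adjusted p-values of 0.397 and 0.485. Rbm34.L differed by -0.53 (unadjusted p = 0.0444, adjusted p = 0.270), and rbm7.L, a subunit that guides the nuclear exosome, by -0.66 (adjusted p = 0.287).

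Both copies were tested for 22 genes. The differences of L and S had the same sign for 18 of them, both positive for 14 and both negative for 4, and the median distance between the copies was 0.19. Copies of a gene are similar in sequence and a probe set of 1 copy may also bind the other, so they are not independent measurements. In 23 gene copies several probe sets were tested. Their differences spread by a median of 0.26, and by more than 0.5 in 5, namely hnrnpu.S (0.97), prpf19.L (0.85), sf3b1.S (0.64), hnrnpr.S (0.52) and srsf1.L (0.51).

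**Figure D4:**
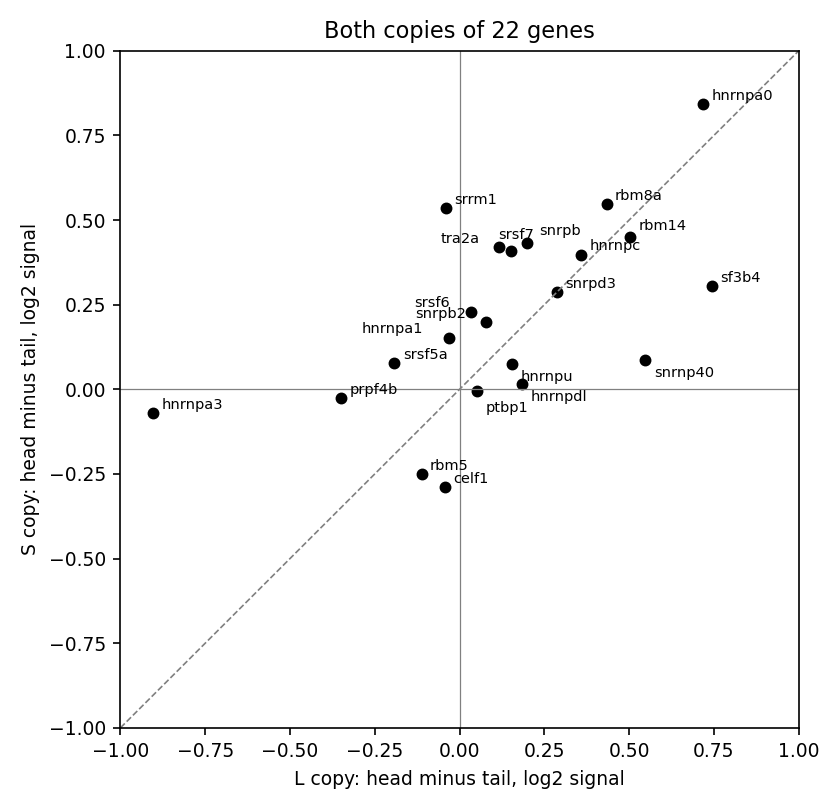
Difference between the mean log2 signals of heads and tails for the S copy (vertical axis) against the L copy (horizontal axis) of the 22 genes with both copies tested, each by its brightest probe set. The dashed line marks equal differences; hnrnpa0 lies at the upper right with 0.72 and 0.84, and hnrnpa3 at the left with -0.90 and -0.07.

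Single arrays also moved the members together. The median deviation of the 159 probe sets from their 8-array means was 0.14, 0.05, 0.03 and 0.18 in head replicates 1 to 4 and -0.12, -0.08, -0.04 and 0.08 in tail replicates 1 to 4, while that of all probe sets lay between -0.02 and 0.04. The head pool was the highest and the tail pool was above head replicates 2 and 3, so the tissues overlapped by this measure. Tail replicate 1 was the lowest array for 50 members (31.4%), against 22.9% of all probe sets, and head replicate 1 was the highest for 39 (24.5%), against 14.4%. Without tail replicate 1 the members' median difference was 0.07 (99 of 158 positive) and that of all was 0.04, and without both replicates 1 the members' median was 0.10 (100 of 158 positive).

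**Figure D5:**
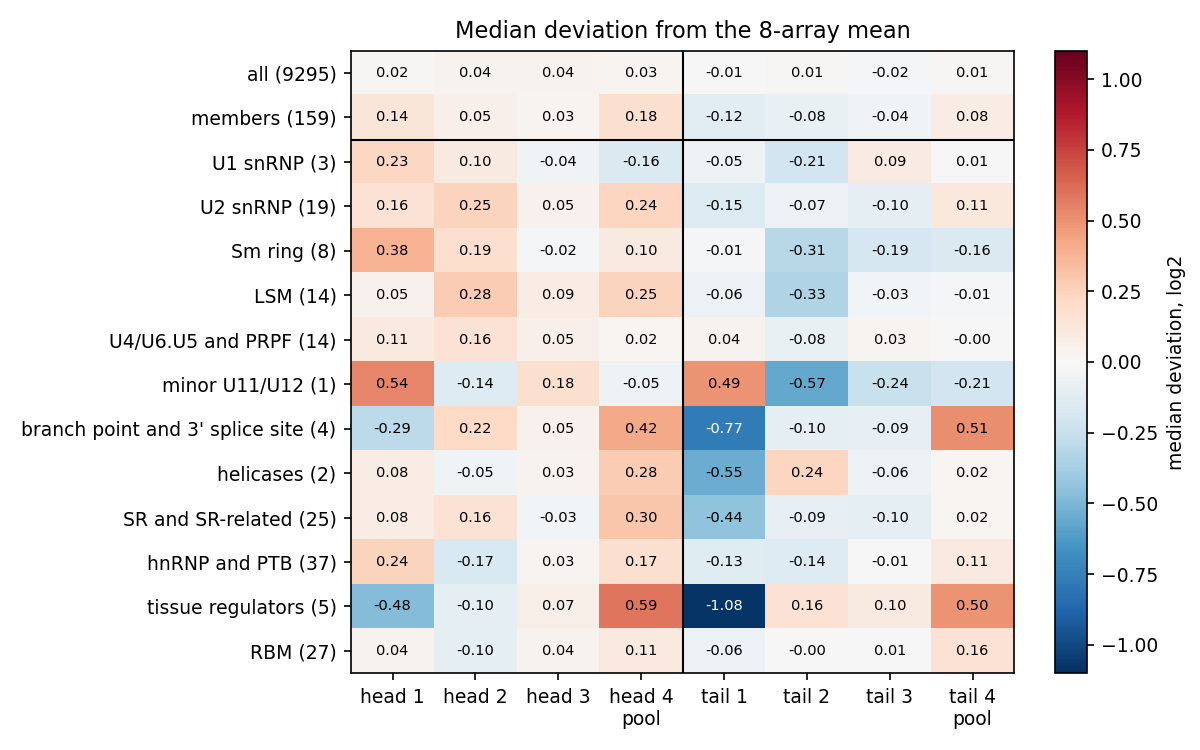
Median deviation, in log2 units, of the probe sets of each complex from their own mean over the 8 arrays, for every array (columns) and class (rows), with the number of probe sets in brackets; red is above and blue below the mean. The members as a whole run from -0.12 in tail replicate 1 to 0.18 in the head pool.

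The pools were compared with the single embryos with tissue in the model. No splicing or hnRNP probe set passed (limma, lowest adjusted p = 0.156), and none of all probe sets did. At an unadjusted p under 0.05 there were 31 of 159 (19.5%), against 14.8% of all, 26 of them with the higher mean in pools and 5 in single embryos. Over all 9295 probe sets tested, 831 had the higher mean in pools and 543 in single embryos at that p. Rbm4b.S was 11.60, 12.04 and 11.95 in the single heads and 12.97 in the head pool, and 10.92, 11.01 and 11.98 in the single tails and 13.41 in the tail pool. Both pools lay above all single embryos, by 1.61 (unadjusted p = 0.000392, adjusted p = 0.156).

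Sf1.S, the branch point binding protein, was 12.65, 13.31 and 13.09 in the single heads and 14.14 in the head pool, and 11.73, 12.92 and 12.52 in the single tails and 14.17 in the tail pool, so pools exceeded single embryos by 1.46 (adjusted p = 0.164). Celf3.S differed by 1.61 between pools and single embryos (adjusted p = 0.176). The interaction of tissue and pooling, which asks whether pools and single embryos differ in their head-tail difference, rests on 1 pool per tissue, so its spread comes from the single embryos alone. It was called for none of all probe sets, with an unadjusted p under 0.05 for 1 member and 38 of all, and this small design says little on whether such a difference exists.

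Other splicing and RNA-binding genes, outside the name rule, gave the wider setting. Of 122 listed (the remaining spliceosome subunits, the exon junction complex, SR kinases, and neural and other RNA-binding regulators), 82 had a probe set and 72 were tested, with 114 probe sets. Of these 114, 3 were higher in heads and none was higher in tails by the adjusted p, with 12 and 1 at an unadjusted p under 0.05. Counting both directions, these are 2.63% called and 11.4% at the unadjusted p, against 4.62% and 17.5% of all probe sets tested. On the head side alone, the 2.63% called stands beside 2.00% of all. The 12 of 114 at the unadjusted p stand beside 822 of 9295. Their median difference was 0.21, with 86 positive. The 3 probe sets belong to the neural RNA-binding proteins Nova2 and Musashi-1. Nova2.L was higher by 1.57 (2.96-fold, adjusted p = 0.00172), msi1.L by 2.06 (4.18-fold, adjusted p = 0.00351) and msi1.S by 2.05 (4.13-fold, adjusted p = 0.0306). Heads and tails did not overlap in nova2.L and msi1.L. In msi1.S they did, with head replicate 1 at 11.24 and the tail pool at 11.33.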

How the data were processed

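Head and tail fragments of stage 18 Xenopus laevis embryos were measured on 8 Affymetrix arrays, 4 per tissue. Total RNA was extracted with TRIzol and a column kit, per the labels' protocols. The deposited intensity values are linear MAS5 signals (per the submitters' processing notes); the version of MAS5 is not given in the sources used here. On every array the mean of the deposited signals without the lowest and highest 2% was 1000, so the arrays had been scaled to a common level. The table used here holds no detection calls, so a dim signal could not be set against background, and for arrays the number of arrays limits the precision.

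Symbols came from the array annotation; all 185 probe sets matched a RefSeq table (assembly Xenopus_laevis_v10.1) by gene identifier, and 0 symbols differed. Signals under 1 were set to 1 before taking log2, probe sets with a mean under the 40th percentile (7.86) were left out, and tissue was fitted without covariates over the 8 arrays by limma 3.58.1 under R 4.3.3 (lmFit and eBayes, intensity trend on), two-sided, with Benjamini-Hochberg adjustment over all 9295 probe sets tested and a threshold of 0.05. Pools were compared with single embryos with tissue in the model. The code was tested on simulated data. Differences are head minus tail on the log2 scale, and a fold is 2 to that power.

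Named were the probe sets called, the 12 with the largest difference among those without overlap, the brightest and the most different of each complex, every celf, mbnl, rbfox, ptbp and rbm24 probe set, and both copies where both were tested, which gave 48 probe sets; 25 more were chosen after their values were seen, as were the other members given by a single value. The members, complexes and lists were chosen with earlier results of these data known. No array genome build was given, so no positions are printed.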

Additional observations from a re-analysis of the deposited data

Results flagged for a closer look

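In 7 of 146 sets of 4 arrays of 1 tissue, 1 array stood far from the other 3 by Dixon's criterion at 95%, which chance gives in about 1 in 20 sets. In heads, replicate 1 of snrpa1.S was at 9.66 (the others 9.44 to 9.47) and replicate 1 of the dim celf1.S probe set at 5.99 (the others 7.46 to 7.59). The head pool was at 5.73 for the dimmer rbm24.L probe set (the others 6.93 to 6.98), at 11.01 for snrnp40.S (11.50 to 11.56) and at 12.60 for hnrnpa3.S (12.32 to 12.33). In tails, replicate 1 of celf2.L was at 11.07 (the others 10.67 to 10.73) and replicate 2 of rbm8a.S at 13.26 (12.53 to 12.60).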

How the results depend on the processing

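The count of splicing and hnRNP probe sets called between heads and tails, 2 of 159, was 1 with a filter at the 60th percentile (which drops celf3.S), with the single embryos only, without the intensity trend, and with 1 probe set per gene copy (which drops the called prpf19.L probe set). It was 7 with array weights, which added hnrnpr.S, hnrnpu.S, rbm8a.S, rbm24.S and snrpd1.L, and it ran from 0 to 2 when each array was left out in turn. It was 0 without head replicate 2 and 0 without tail replicate 2 (10 and 16 at an unadjusted p under 0.05), where the adjusted p of celf3.S was 0.0502 and 0.0504. Over all probe sets the count of 429 was 273 with the filter at the 60th percentile, 212 with the single embryos only and 1223 with array weights, it ran from 211 to 508 on leaving out each array, and it was 679 without both replicates 1, an alternative chosen after seeing the data.

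The replicate numbers were checked as a pairing: deviations of same-numbered heads and tails correlated at 0.23, 0.03, 0.02 and 0.60, the last between the pools. Those of heads and tails with unequal numbers correlated at -0.54 to 0.18. These values do not settle whether equal numbers share an embryo. The labels state no pairing, so none was used in the main fit. With the replicate number as a block, 4 splicing and hnRNP probe sets (celf3.S, rbm24.S, sf3b4.L and prpf19.L) and 635 of all passed.

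No difference that passed changed direction under these alternatives. In 68 cases over 22 named probe sets, a difference that passed under neither setting changed sign, by at most 0.30 in the fit reported and 0.60 under the alternative. The comparison of pools with single embryos and the interaction called 0 members under each alternative run, with limma; at an unadjusted p under 0.05 the pool comparison gave 22 to 40 members and the interaction 1. The causes of these shifts were not tested beyond the arrays and probe sets each alternative leaves out. The table gives no background, so how far the dim signals near the filter rise above it is unknown.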
